A study of Homo sapiens with 2 samples.

Results

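Vesicle fusion and synaptic secretion genes were followed by RNA sequencing in C4-2B ENZR, a human prostate cancer cell line grown to resist enzalutamide, a drug used against this cancer. They encode the membrane proteins that pull vesicles onto their targets and the regulators that time that step, and they were taken as every listed symbol of the syntaxin (STX), syntaxin-binding protein (STXBP), SNAP, VAMP, synaptotagmin (SYT), synaptotagmin-like (SYTL), synapsin (SYN), synaptogyrin (SYNGR), complexin (CPLX) and RIM (RIMS) families with a family number, together with SV2A to SV2C and UNC13A to UNC13D. Antisense models with -AS in their symbol, 4 of the 86 that matched, were left out. This gave 82 members among 26475 listed symbols. By textbook role, 37 members were classed as neuronal, 23 as widely expressed and 19 as other, meaning restricted to other tissues or of less certain role. The remaining 3 were the readthrough STX16-NPEPL1, the intronic transcript STX18-IT1 and the pseudogene SYT14P1.

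The shNRP2 library came from cells that stably carried a lentiviral hairpin against the coding region of NRP2, a semaphorin and VEGF co-receptor. The shControl library, whose genotype is labelled WT, came from cells with a non-targeting hairpin, and both lines had been through antibiotic selection and were grown in 20 µM enzalutamide. The comparison asks how this machinery differed when NRP2 was targeted, in a series about neuroendocrine prostate cancer, in which tumour cells take on a neuron-like secretory programme. Each group held 1 library and 1 hairpin, so no spread between replicates exists and no test between the conditions was possible. Every difference describes these 2 libraries only.

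Vesicles fuse when SNARE proteins on the vesicle (the VAMPs) zip together with SNAREs on the target membrane (syntaxins and SNAPs). Munc18 proteins hold syntaxins ready, Munc13 proteins (UNC13 genes) and RIMs dock and prime vesicles, and complexins and synaptotagmins couple the last step to calcium. Nerve and endocrine cells use dedicated versions such as SNAP25, STX1A, VAMP2 and SYT1, whereas most cells, luminal prostate epithelium included, run secretion and membrane traffic on relatives such as SNAP23, STX3, STX4, VAMP3 and VAMP8.

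The libraries held 22992304 reads on listed symbols in shNRP2 and 21052178 in shControl. Values are TMM-scaled CPM, counts scaled to library size by the authors, and 1 read was worth 0.0472 CPM in shNRP2 and 0.0487 CPM in shControl, so that 0 reads allow up to 0.141 and 0.146 CPM. NRP2 itself had 7 reads in shNRP2 and 20 in shControl, 0.330 and 0.974 CPM, which is 2.95-fold lower in shNRP2 (a ratio of 0.339, with a 95% counting interval from 0.121 to 0.835). Its mean of 0.652 CPM lay below 1 CPM, the level from which genes are compared here, so its change rests on few reads. The luminal prostate marker HOXB13 was at 486 CPM in shNRP2 and 511 CPM in shControl. The 8 neuroendocrine markers summed to 1.84 CPM in shNRP2 and 1.80 CPM in shControl, most of it SYP, and NEUROD1 had 0 reads in both. Of 10 neuron markers, MAP2 and TUBB3 averaged 1 CPM or more and NEFM and STMN2 had 0 reads in both. The list summed to 39.9 CPM in shNRP2 and 51.1 CPM in shControl. TUBB3 was 1.58-fold lower in shNRP2 (a ratio of 0.634, 0.560 to 0.717), while MAP2 had a ratio of 1.05 (0.912 to 1.22). The fibroblast list summed to 36.6 CPM in shNRP2 and 46.4 CPM in shControl, with DCN at 0 in both. Most of it was COL1A1, at 32.5 and 41.5 CPM, with a ratio of 0.785 (0.709 to 0.868). The endothelial list summed to 3.87 and 3.75 CPM, most of it VWF, with TEK at 0 in both. The leukocyte list summed to 10.9 and 7.40 CPM, with PTPRC at 1 and 5 reads, CD68 at 211 and 137, and LYZ at 17 and 6. The part of all these markers in the results was not tested.

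The promoter windows of SYNGR1, the member with most reads among those at least 1.5-fold higher in shNRP2, of VAMP1, the one member at least 1.5-fold lower, and of SYT4, the neuronal member with most reads, are shown because the results turn on these genes. They are RefSeq windows of 300 bases, from 250 bases before to 50 after a start site, 5′ to 3′ on the gene's strand and on build GRCh38.p14; 63 of the 82 members matched such a window, 99 windows in all. SYT12 and SYNGR3 are named only. Capitals mark 4 short motifs searched on both strands, ACGTG (the core of hypoxia response elements), GGGCGG (the GC box), and TCAGCACC and GGACAGC (from the left and the right part of RE1, the element bound by the neuronal repressor REST); neighbouring matches can overlap.
SYNGR1, first start, chr22:39349741-39350040, plus strand: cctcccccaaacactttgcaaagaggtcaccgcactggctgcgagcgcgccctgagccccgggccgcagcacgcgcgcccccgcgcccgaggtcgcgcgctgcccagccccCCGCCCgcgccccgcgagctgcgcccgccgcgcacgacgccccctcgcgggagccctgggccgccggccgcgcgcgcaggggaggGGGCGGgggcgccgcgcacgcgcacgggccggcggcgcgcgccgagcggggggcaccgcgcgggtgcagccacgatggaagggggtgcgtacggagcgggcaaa
SYNGR1, second start, chr22:39363897-39364196, plus strand: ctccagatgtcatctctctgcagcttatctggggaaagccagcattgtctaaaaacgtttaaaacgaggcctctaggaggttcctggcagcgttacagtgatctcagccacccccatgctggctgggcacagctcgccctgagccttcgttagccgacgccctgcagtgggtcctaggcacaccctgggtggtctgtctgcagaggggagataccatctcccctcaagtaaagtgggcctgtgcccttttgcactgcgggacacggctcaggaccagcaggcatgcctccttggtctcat
VAMP1, chr12:6470628-6470927, minus strand: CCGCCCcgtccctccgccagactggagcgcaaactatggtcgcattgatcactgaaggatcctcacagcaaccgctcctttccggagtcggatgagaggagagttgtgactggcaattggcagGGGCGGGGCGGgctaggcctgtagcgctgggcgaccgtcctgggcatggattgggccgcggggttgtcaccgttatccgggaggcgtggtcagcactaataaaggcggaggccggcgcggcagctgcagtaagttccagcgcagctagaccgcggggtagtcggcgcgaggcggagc
SYT4, chr18:43277441-43277740, minus strand: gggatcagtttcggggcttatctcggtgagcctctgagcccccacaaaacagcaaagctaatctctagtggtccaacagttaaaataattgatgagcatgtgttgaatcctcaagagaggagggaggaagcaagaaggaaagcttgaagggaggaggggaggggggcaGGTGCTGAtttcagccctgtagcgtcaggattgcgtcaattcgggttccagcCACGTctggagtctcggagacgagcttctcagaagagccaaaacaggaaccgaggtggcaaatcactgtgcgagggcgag

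The first SYNGR1 window was 82.3% G or C, held 55 CG pairs and had 2 GC boxes, and the second was 58.0% G or C with none of the 4 motifs. The VAMP1 window had 3 GC boxes, 2 of them overlapping. The SYT4 window held the left RE1 part on the opposite strand, 82 bases before the start site, and ACGTG on the opposite strand, 30 bases before it. TCAGCACC was found in 7 of the 99 member windows (7.07%), against 1.67% of all 35116 windows; the genes were SYT4, SYT3, SYN1, SV2B, SV2C and UNC13A of the neuronal class and STX6 of the widely expressed class. GGACAGC was in 3.03% of member windows and 6.03% of all, ACGTG in 33.3% and 21.4%, and GGGCGG in 62.6% and 45.0%. Windows of a gene can overlap, which start these cells used was not measured, and a match is a description of letters, not of a bound site.

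Detection differed between the classes. The classes follow known roles and were set with earlier results of these data known, so this difference partly restates the classing. All 23 widely expressed members averaged 1 CPM or more across the libraries, the level from which genes are compared here, against 21 of 37 neuronal and 9 of 19 other members. Together with STX16-NPEPL1 this left 54 members compared. Over all 26447 symbols used, 13316 reached that level, a share near that of the neuronal and other classes. Another 7 members had 0 reads in both libraries, namely CPLX4, SYN3, SYT6, SYT8, SYT10, STX18-IT1 and SYT14P1. The 21 members in between had 0 to 23 reads in shNRP2 and 0 to 15 in shControl. SYT1, at a mean of 1.03 CPM, lay just inside the level for comparison and SYNGR4, at 0.908 CPM, just outside it.

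Among the 54 compared members, 4 were at least 1.5-fold higher in shNRP2 and 1 at least 1.5-fold lower, taken on the scale log2((shNRP2 CPM + 1)/(shControl CPM + 1)), which understates changes of low genes. Over all 13316 compared genes 5.78% were that much higher and 3.57% that much lower. All 5 belonged to the neuronal class, and none of the 23 widely expressed members passed 1.5-fold, their changes lying between -0.48 and 0.40 (log2). At 2-fold, SYT12 and SYNGR3 were higher and 0 members lower, against 1.46% and 0.526% of all compared genes. The median log2 change was 0.04 for the neuronal class and 0.04 for the widely expressed class, beside 0.03 for all compared genes. Neuronal members spread more widely, from -0.67 to 1.44, but they also had fewer reads, a median of 178 in shNRP2 and 224 in shControl against 1154 and 1197 for widely expressed members. With only members of at least 10 CPM, the range was -0.28 to 0.88 for 10 neuronal members and -0.48 to 0.40 for 22 widely expressed members, and SYNGR1 made up the upper end. The 95% counting interval of the ratio lay above 1 for 19 compared members and below 1 for 11, while over all compared genes 32.7% lay above and 24.0% below. These intervals are exact conditional binomial (Clopper-Pearson) ones on recovered reads and cover counting error only. In a population of cells, fewer cells that express a gene and less of its RNA in each cell cannot be told apart.

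**Figure D1:**
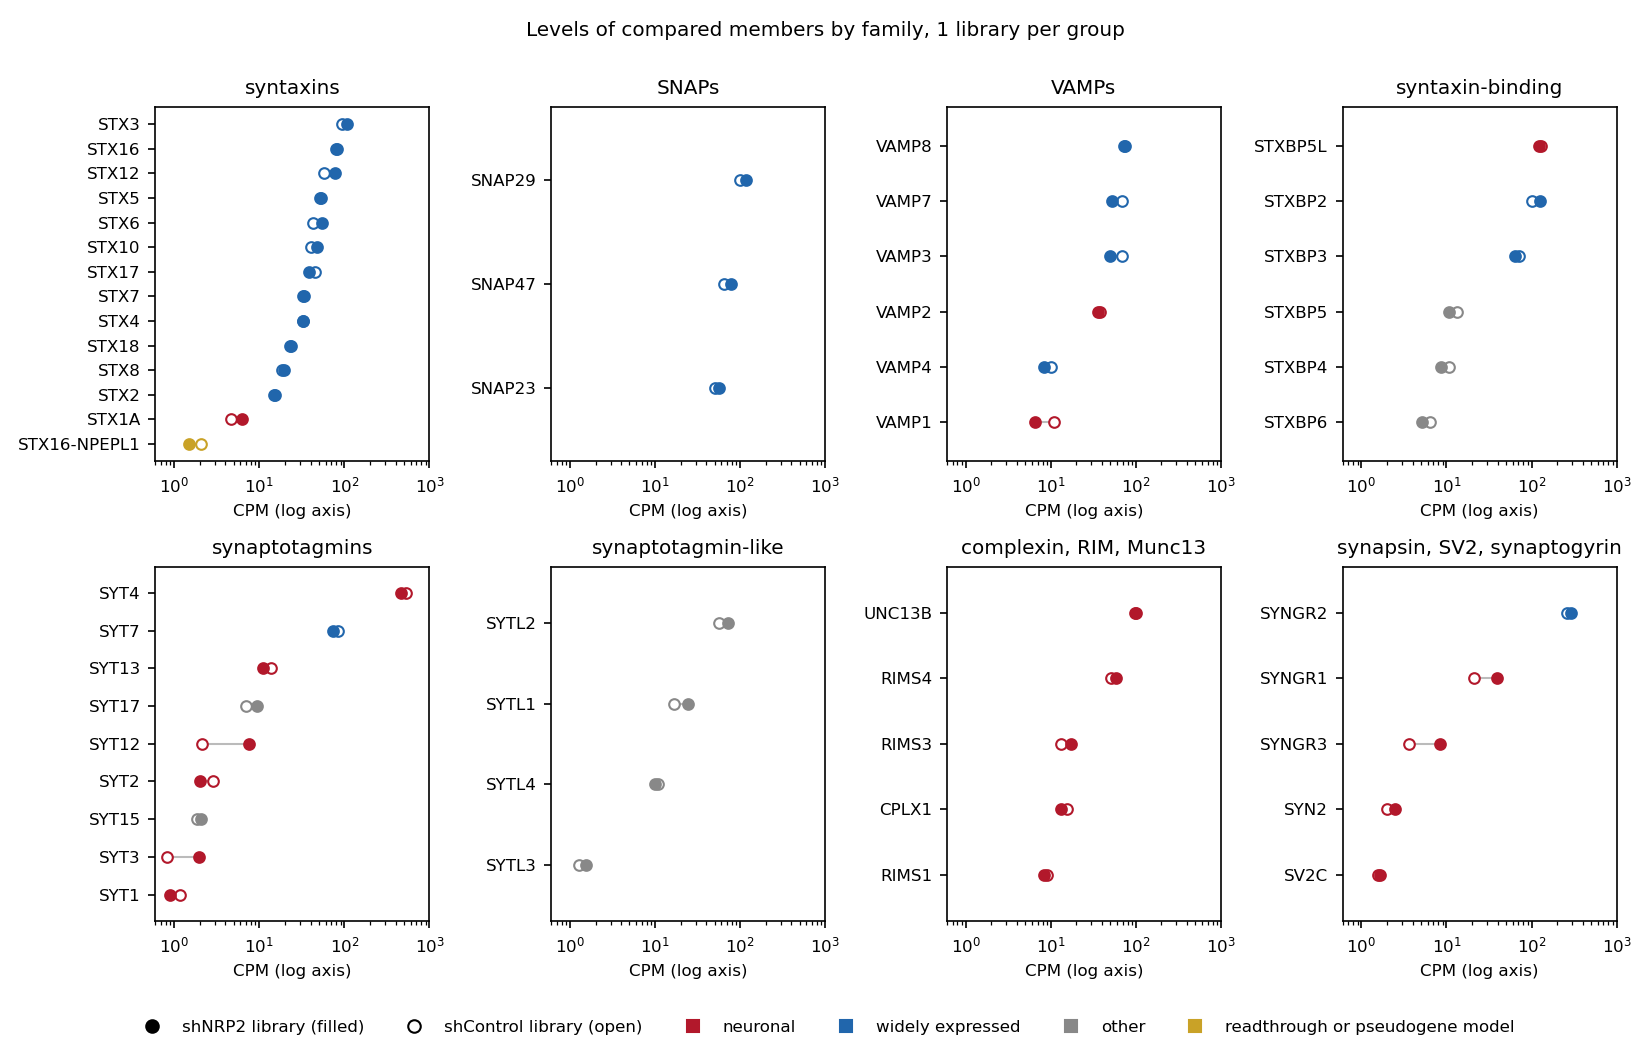
Level of 52 compared members in CPM (log axis), by family, with the shNRP2 library as a filled and the shControl library as an open point, 1 library each and no error bars. The distance between the points of a gene is widest for SYT12, SYT3, SYNGR3, SYNGR1 and VAMP1. Levels in CPM are not per length and are not to be compared between genes.

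Synaptotagmins, the calcium sensors and related C2-domain proteins of vesicle fusion, held both the neuronal member with most reads and the largest change among compared members. SYT12, a brain synaptotagmin thought to work without binding calcium, had 159 reads in shNRP2 and 44 in shControl, 7.50 and 2.14 CPM. It was 3.50-fold higher in shNRP2 (2.49 to 5.01), a log2 change of 1.44, and 56 of the 13316 compared genes, SYT12 included, had a change as high or higher. SYT3, a neuronal calcium sensor, had 41 reads in shNRP2 and 17 in shControl, a ratio of 2.34 (1.30 to 4.39) and a log2 change of 0.68. With a pseudocount of 5 CPM the SYT3 change was 0.25 and no longer past 1.5-fold. Both genes were thus low in shControl and higher in shNRP2, and SYT3 rests on few reads.

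SYT4, a synaptotagmin of dense-core vesicles in neurons and endocrine cells, had more reads than nearly all other genes of these cells, a rank that is not per length. It had 9793 reads in shNRP2 and 10876 in shControl, 462 and 530 CPM, above 97.7% and 98.3% of all compared genes by CPM. Per kilobase of its longest coding transcript, SYT4 stood at 112 CPM in shNRP2 and 129 CPM in shControl and made up 83.3% and 84.7% of the summed level per kilobase of the 17 synaptotagmins with a length. Per kilobase it was 7.50 times SYT7 in shNRP2 and 7.45 times in shControl, SYT7 being a widely expressed sensor of slow release and lysosome fusion. SYT4 was 1.15-fold lower in shNRP2, a ratio of 0.872 (0.849 to 0.897), and SYT7 had a ratio of 0.866 (0.808 to 0.928). Neither passed 1.5-fold, and their counting intervals are narrow because their reads are many. The intervals do not cover the choice of scaling. The SYT4 log2 change was -0.20, but -0.28 with equal library totals and -0.32 under quantile normalization.

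SYT1, the fast calcium sensor of synapses, had 19 reads in shNRP2 and 24 in shControl. SYT2, its close relative at fast synapses, had 43 and 58 reads, and SYT9, the remaining fast sensor, 10 and 15; the counting intervals of all 3 ratios included 1. SYT13 was at 11.1 CPM in shNRP2 and 13.6 CPM in shControl, with a ratio of 0.813 (0.681 to 0.970), and SYT17 at 9.29 and 6.91 CPM, with a ratio of 1.34 (1.08 to 1.68). SYT15 had 44 reads in shNRP2 and 38 in shControl and has a near-identical copy in the genome, so its value is uncertain. SYT5, a dense-core vesicle synaptotagmin, had 13 reads in shNRP2 and 1 in shControl, a ratio of 12.6 with an interval from 1.89 to 535, and lay below the level for comparison. SYT11 had 18 reads in shNRP2 and 12 in shControl, and SYT14 and SYT16 had at most 3 in either library.

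Synaptogyrins, multi-pass membrane proteins of synaptic and other small vesicles, were higher in shNRP2 in each case where they could be compared. Over all 13316 compared genes, 7207 had a log2 change above 0. SYNGR1 had 834 reads in shNRP2 and 430 in shControl, 39.3 and 20.9 CPM, and was 1.88-fold higher (1.67 to 2.12; log2 0.88). SYNGR3, found on synaptic vesicles, had 176 reads in shNRP2 and 74 in shControl, 8.30 and 3.60 CPM, and was 2.30-fold higher (1.75 to 3.07; log2 1.01). SYNGR2, the widely expressed cellugyrin, was at 291 CPM in shNRP2 and 259 CPM in shControl, a ratio of 1.12 (1.08 to 1.17). The 2 neuronal synaptogyrins therefore passed 1.5-fold and the widely expressed one did not, although SYNGR2 led per kilobase, at 14.0 times SYNGR1 in shNRP2 and 23.4 times in shControl. With the median in place of the longest transcript length, chosen after seeing the data, these ratios were 4.60 and 7.70. The SYNGR1 promoter windows printed above are rich in CG pairs at the first start. SYNGR4 had 23 reads in shNRP2 and 15 in shControl.

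Other proteins of synaptic vesicles were scarce. The synapsins tether vesicles to each other and to the cytoskeleton. SYN1 had 1 read in shNRP2 and 0 in shControl, SYN3 had 0 in both, and SYN2 had 52 in shNRP2 and 41 in shControl, a ratio of 1.23 (0.800 to 1.90). The SV2 glycoproteins are transporter-like vesicle proteins, of which SV2A binds the drug levetiracetam. SV2A had 0 reads in shNRP2 and 6 in shControl. With 0 set to the limit of 3 reads for that library, it was 2.06-fold lower in shNRP2. That figure leaves out the counting error of the 6 reads, so it is not a lower bound. SV2B had 0 reads in shNRP2 and 3 in shControl, and SV2C had 35 and 32, a ratio of 1.06 (0.637 to 1.77).

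**Figure D2:**
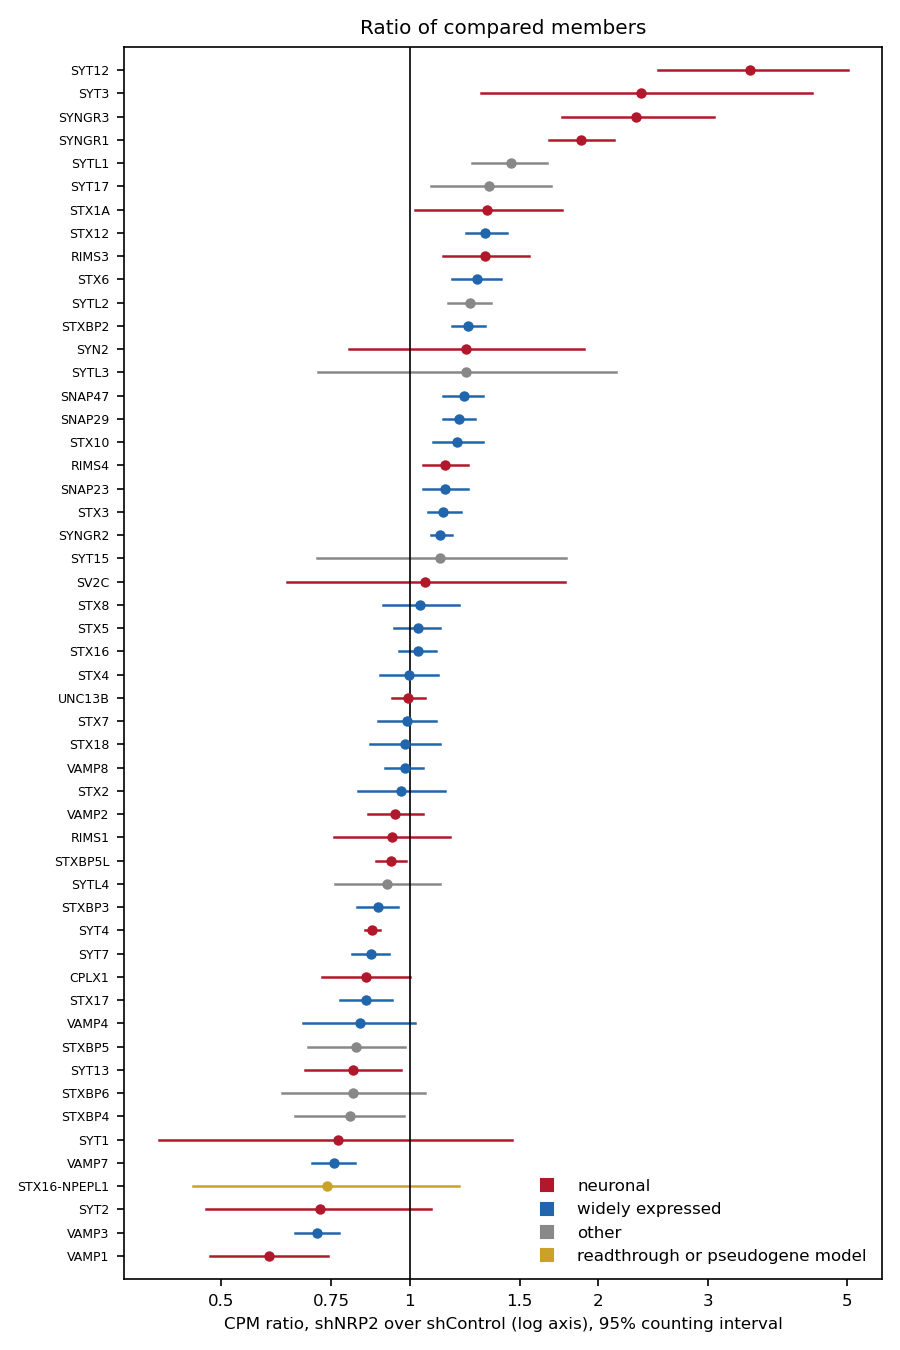
Ratio of CPM in the shNRP2 library over the shControl library for 52 compared members (log axis), sorted, with bars for the 95% counting interval; the vertical line marks a ratio of 1. SYT12, SYT3, SYNGR3 and SYNGR1 stand at the top and VAMP1, VAMP3 and VAMP7 near the bottom.

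VAMPs, the SNAREs carried by vesicles, all had a log2 change below 0. The 6 compared members ranged from -0.67 to -0.03 (log2) with a median of -0.32, and the counting interval lay below 1 for 3 of them. Over all 13316 compared genes, 6109 had a change below 0. The 6 VAMPs stayed below 0 with equal library totals, with the median gene set to 0 and under quantile normalization. VAMP1, the synaptobrevin of motor and other neurons, had 138 reads in shNRP2 and 224 in shControl, 6.51 and 10.9 CPM, and was 1.68-fold lower (a ratio of 0.597, 0.479 to 0.741). Its exons overlap those of TAPBPL on the other strand in GENCODE 29, and no strand setting is given in the sources used here, so reads of the pair cannot be told apart; TAPBPL was at 11.5 CPM in shNRP2 and 12.7 CPM in shControl. With a pseudocount of 5 CPM the VAMP1 change was -0.47 and not past 1.5-fold.

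VAMP3, or cellubrevin, which serves recycling endosomes, had 1050 reads in shNRP2 and 1429 in shControl, a ratio of 0.712 (0.657 to 0.771). VAMP7, a longin SNARE of late endosomes and lysosomes, had 1107 reads in shNRP2 and 1419 in shControl, a ratio of 0.756 (0.698 to 0.818). These were the lowest ratios among widely expressed members and lay inside the 1.5-fold threshold. VAMP8, of late endosomes and exocrine granules, was at 73.1 CPM in shNRP2 and 74.4 CPM in shControl, a ratio of 0.982 (0.914 to 1.05). VAMP2, the main synaptobrevin of synapses, which endocrine and other cells also use, was at 35.6 CPM in shNRP2 and 37.5 CPM in shControl (0.857 to 1.05 for the ratio). Per kilobase VAMP8 led the family, at 90.8 CPM in shNRP2 and 92.5 CPM in shControl, which was 5.50 and 5.31 times VAMP2, or 3.12 and 3.02 times by median transcript length. VAMP4, a SNARE of the trans-Golgi network, was at 8.30 CPM in shNRP2 and 9.98 CPM in shControl, a ratio of 0.832 (0.676 to 1.02). VAMP5 had 9 reads in shNRP2 and 12 in shControl.

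The SNAP proteins pair with syntaxins on target membranes, and here the neuronal form was nearly absent. SNAP25, the neuronal and endocrine SNAP, had 0 reads in shNRP2 and 5 in shControl, a difference whose counting interval included 1. SNAP91, which despite its symbol is a clathrin adaptor of synapses and no SNARE, had 4 reads in shNRP2 and 8 in shControl. SNAP23, the widely expressed counterpart of SNAP25, had 1207 reads in shNRP2 and 1028 in shControl and stood per kilobase at 21.2 and 18.6 CPM, which in shControl was 157 times the level of SNAP25 (742 times by median transcript length). All 3 widely expressed SNAPs were slightly higher in shNRP2, under the 3 other scalings too, beside 7207 of 13316 compared genes with a log2 change above 0. SNAP23 had a ratio of 1.14 (1.05 to 1.24) and SNAP47 of 1.22 (1.13 to 1.31). SNAP29, which acts in autophagosome fusion, was at 118 CPM in shNRP2 and 98.4 CPM in shControl, a log2 change of 0.26.

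Syntaxins were led by the widely expressed forms, and none passed 1.5-fold. STX3, the apical plasma membrane syntaxin of epithelia, was at 106 CPM in shNRP2 and 93.5 CPM in shControl, a ratio of 1.13 (1.07 to 1.21). STX4, the basolateral form, was at 32.6 CPM in shNRP2 and 32.7 CPM in shControl. STX1A, the plasma membrane syntaxin of neurons and endocrine cells, had 132 reads in shNRP2 and 96 in shControl, 6.23 and 4.67 CPM, and a ratio of 1.33 (1.02 to 1.75). Per kilobase STX3 was 10.8 times STX1A in shNRP2 and 12.7 times in shControl.

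Most of the remaining syntaxins serve compartments inside the cell, such as the Golgi, endosomes, endoplasmic reticulum and autophagosomes. STX12, of recycling endosomes, was at 77.2 CPM in shNRP2 and 58.3 CPM in shControl, a ratio of 1.32 (1.23 to 1.43), and STX6, of the trans-Golgi network, at 54.4 and 42.5 CPM, a ratio of 1.28 (1.17 to 1.40). STX17, which drives fusion of autophagosomes with lysosomes, was at 38.3 CPM in shNRP2 and 45.0 CPM in shControl, a ratio of 0.851 (0.774 to 0.937). STX16 was at 81.6 CPM in shNRP2 and 79.1 CPM in shControl and its reads are uncertain against those of the readthrough STX16-NPEPL1, which had 32 and 42 reads. STX10 had a ratio of 1.19 (1.09 to 1.31), and the counting intervals of STX2, STX5, STX7, STX8 and STX18 included 1. STX11, of cytotoxic granules in blood cells, had 1 read in shNRP2 and 7 in shControl, and STX19 had 6 and 15; both intervals included 1.

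**Figure D3:**
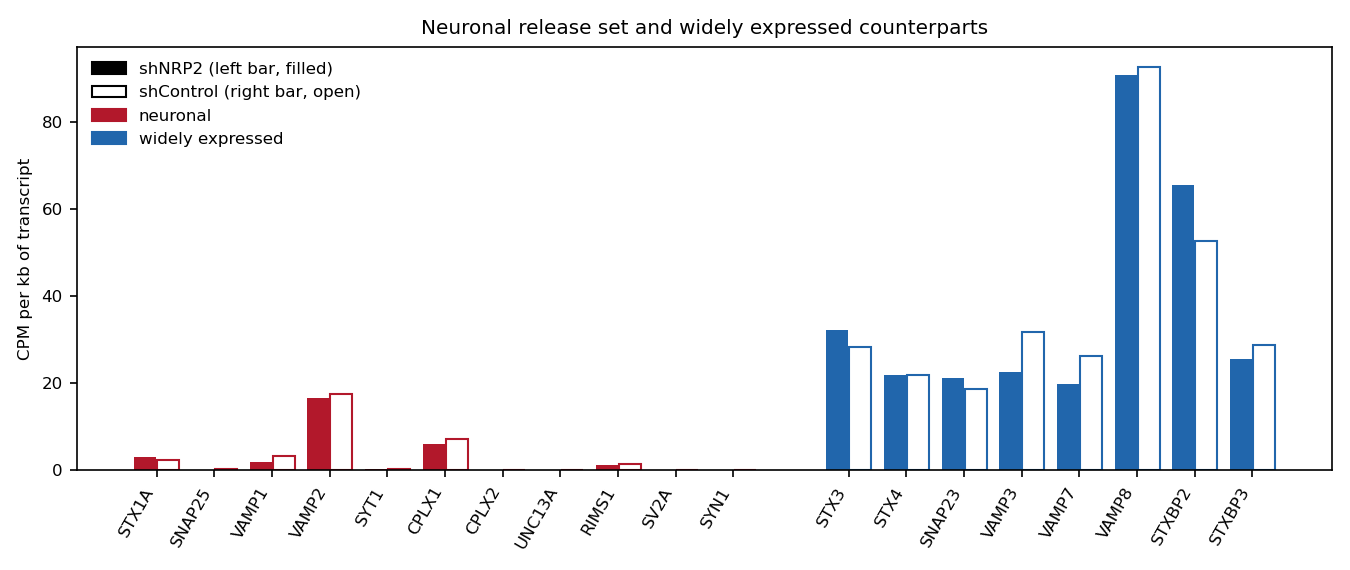
Level per kilobase of the longest coding transcript (CPM per kb) of 11 members of the neuronal release set, on the left, and 8 widely expressed counterparts, on the right, with the shNRP2 library as the filled left bar and the shControl library as the open right bar. Most neuronal bars are near 0, apart from VAMP2 and CPLX1, while the counterparts are all at or above 18.6 CPM per kb.

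As a set, the 11 neuronal release genes drawn summed per kilobase to 28.9 CPM in shNRP2 and 31.6 CPM in shControl, and their 8 widely expressed counterparts to 299 and 300 CPM. The neuronal sums leave out genes of that set that are not reported here, while all 8 counterparts are kept. The gap between these sums is therefore not that of the full sets. Of these 11 genes, 6 could be compared, with VAMP1 the only one past 1.5-fold and a median log2 change of -0.14. The counterparts had a median of -0.01 and none past 1.5-fold.

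Among syntaxin-binding proteins, the Munc18 forms chaperone syntaxins and grip the assembling SNAREs, whereas the tomosyns STXBP5 and STXBP5L and amisyn, STXBP6, compete with VAMPs. STXBP5L, tomosyn-2, a release inhibitor of neurons and endocrine cells, had 2583 reads in shNRP2 and 2680 in shControl, a ratio of 0.934 (0.884 to 0.986). It stood per kilobase at 12.8 CPM in shNRP2 and 13.7 CPM in shControl, 10.9 and 9.56 times the level per kilobase of its relative STXBP5. STXBP2, the Munc18 of epithelia and blood cells, was at 125 CPM in shNRP2 and 101 CPM in shControl, a ratio of 1.24 (1.17 to 1.32), and STXBP3 at 63.2 and 71.2 CPM, a ratio of 0.889 (0.824 to 0.958). STXBP2 led the family per kilobase, at 65.4 CPM in shNRP2 and 52.6 CPM in shControl. STXBP4, STXBP5 and STXBP6 had ratios of 0.803, 0.822 and 0.813, and the counting interval of STXBP6 included 1.

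Genes of docking, priming and clamping were split between well expressed and nearly silent paralogs. UNC13B, a Munc13 that other tissues such as kidney also express, had 2094 reads in shNRP2 and 2039 in shControl, a ratio of 0.995 (0.936 to 1.06). UNC13A, the main Munc13 of excitatory synapses, had 2 reads in shNRP2 and 6 in shControl, UNC13C had 2 and 3, and UNC13D, of blood cell granules, 18 and 13. RIMS4, a short RIM of gamma type, was at 58.9 CPM in shNRP2 and 51.5 CPM in shControl, a ratio of 1.14 (1.05 to 1.24), and RIMS3, also of gamma type, at 17.5 and 13.2 CPM, a ratio of 1.32 (1.13 to 1.55). RIMS1, the large active zone scaffold, had 178 reads in shNRP2 and 184 in shControl, and RIMS2, its close relative, 0 and 1. CPLX1, which clamps and then releases SNAREs, was at 13.2 CPM in shNRP2 and 15.5 CPM in shControl, a ratio of 0.853 (0.724 to 1.00). CPLX2 had 2 reads in shNRP2 and 0 in shControl, and CPLX3, of retina, 12 and 11.

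Synaptotagmin-like proteins bind Rab27 and bring secretory granules to the plasma membrane. SYTL1, SYTL2 and SYTL4 carried most of their reads. SYTL1 was at 24.1 CPM in shNRP2 and 16.7 CPM in shControl, a ratio of 1.45 (1.26 to 1.66) and a log2 change of 0.51, the nearest to the 1.5-fold threshold from inside among members on the higher side. SYTL2 was at 71.3 CPM in shNRP2 and 57.2 CPM in shControl, a ratio of 1.25 (1.15 to 1.35). SYTL4, granuphilin, of insulin granules, was at 9.95 CPM in shNRP2 and 10.8 CPM in shControl (0.759 to 1.12 for the ratio). SYTL3 had 33 reads in shNRP2 and 26 in shControl, and SYTL5 had 3 in each.

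**Figure D4:**
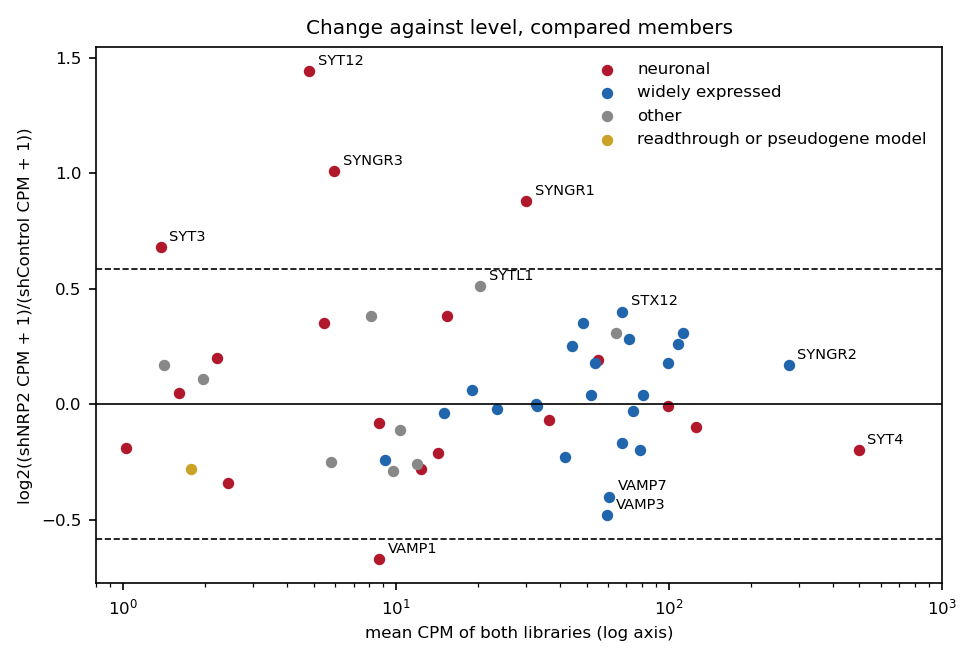
Log2 change, log2((shNRP2 CPM + 1)/(shControl CPM + 1)), against the mean CPM of both libraries (log axis) for 52 compared members, with dashed lines at 1.5-fold. The 5 members outside the lines are all neuronal and have a mean of at most 30.1 CPM, while widely expressed members lie between -0.48 and 0.40.

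The wider trafficking pathway was read from a list of 61 companion genes outside these families, of which 55 could be compared. Of these, 3 were at least 1.5-fold higher in shNRP2 and 4 at least 1.5-fold lower, beside 5.78% and 3.57% of all compared genes, with a median log2 change of 0.04. Both counts are small, and nothing particular to the list is read from them. None of the 4 SNARE disassembly genes passed 1.5-fold. NSF, the ATPase that takes spent SNAREs apart, was at 150 CPM in both libraries, its adaptor NAPA at 112 CPM in shNRP2 and 89.0 CPM in shControl, a ratio of 1.25 (1.18 to 1.33), and NAPG at 49.9 and 49.3 CPM. None of 12 Golgi, endoplasmic reticulum and endosome SNAREs passed 1.5-fold, with YKT6, SEC22B and VTI1B at ratios of 1.06, 1.19 and 1.03. Nor did the 5 relatives of Sec1/Munc18, led by SCFD1, of traffic from endoplasmic reticulum to Golgi, with a ratio of 1.41 (1.31 to 1.51), beside VPS33A at 1.00 and VPS45 at 0.782. All 9 exocyst subunits, which tether vesicles at the plasma membrane, lay between -0.15 and 0.14 (log2), among them EXOC7 at 169 and 176 CPM and EXOC5 at 149 and 144 CPM in shNRP2 and shControl.

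Active zone scaffolds and Rab27 partners were the companions that passed 1.5-fold in both directions. The giant scaffolds PCLO (piccolo) and BSN (bassoon), which organise the presynaptic active zone, had 74 and 43 reads in shNRP2 against 161 and 91 in shControl. PCLO was 2.25-fold lower (a ratio of 0.445, 0.333 to 0.590) and BSN 2.18-fold lower (0.458, 0.311 to 0.665) in shNRP2. PPFIA4, a liprin-alpha scaffold, had 213 reads in shNRP2 and 73 in shControl and was 2.83-fold higher (2.16 to 3.74). Its relatives PPFIA1 and PPFIA2 were at 114 and 76.4 CPM in shNRP2 and at 115 and 110 CPM in shControl, PPFIA2 with a ratio of 0.693 (0.649 to 0.739), and the scaffold ERC1 at 77.5 and 70.9 CPM. These scaffolds thus differed among themselves in direction.

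RAB27A, the small GTPase that SYTL proteins bind, had 405 reads in shNRP2 and 206 in shControl and was 1.90-fold higher (1.61 to 2.26), while RAB27B was at 13.4 and 12.7 CPM. MLPH and MYRIP, which link Rab27 to myosin motors, had ratios of 0.585 (0.524 to 0.653) and 0.569 (0.452 to 0.714). RAB3D, RAB3B and RAB3A, GTPases of regulated secretion, had ratios of 1.28, 1.16 and 1.33. SCAMP5, a secretory carrier protein enriched in brain, was at 23.1 CPM in shNRP2 and 14.3 CPM in shControl, 1.62-fold higher (1.40 to 1.88). SYP, synaptophysin, had 31 reads in each library, and its widely expressed relative SYPL1 was at 135 CPM in shNRP2 and 105 CPM in shControl. SCAMP3 and SCAMP4 had ratios of 1.01 and 1.11.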

How the data were processed

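Per gene symbol the authors deposited a signal, described in the deposited tables' names as TMM-normalized CPM. The submitters' processing notes name bcl2fastq 2.17, Bowtie2 2.1.0, RSEM 1.2.15, edgeR and the build hg19; the sources used here give no annotation, strand setting or role of a tool. All values (100%) were whole multiples of 1 read within 0.01 read, so whole reads were recovered, and the columns sum to 1084413 (shNRP2) and 1024943 (shControl). The design had assumed CPM; this signal is called CPM here.

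Changes are log2((shNRP2 CPM + 1)/(shControl CPM + 1)) for genes averaging 1 CPM or more. Ratios carry exact conditional binomial 95% intervals (scipy 1.17.1), and limits of 0 use 3 reads. Lengths are the longest protein-coding transcript per symbol in GENCODE 29, for 79 of the 82 members. Excluded were 28 symbols turned into dates, 0.184% and 0.181% of the reads. A few genes are not reported here and are left out of the figures. Calculations were tested on simulated counts. Members, classes and lists were chosen with earlier results of these data known. The text names every member past 1.5-fold, a neuronal release set and its counterparts, the 3 members with most reads per family, and companions past 1.5-fold or with most reads per role; other members were named after their values were seen. Alternatives were other pseudocounts, filters, scalings, thresholds, classes and lengths.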

Additional observations from a re-analysis of the deposited data

How the results depend on the processing

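Each group held 1 library, so no replicate could be left out and no spread between cultures is known. No paired analysis was possible because each group has a single library. The count of members at least 1.5-fold higher was 4 and became 2 with a filter at a mean of 5 CPM, 2 at a 2-fold threshold and 19 when counting intervals that exclude 1 were used. The count lower was 1 and became 0 with a pseudocount of 5 CPM, 0 at a 2-fold threshold and 11 by counting intervals. With the other pseudocounts, scalings and filters run, these counts were 3 to 5 and 1. The median change of all members, 0.04, lay between -0.04 (equal library totals) and 0.04, that of neuronal members between -0.07 (no filter) and 0.04 under the pseudocounts, scalings and filters run, and that of widely expressed members between -0.04 and 0.04. SYNGR1, SYNGR3 and SYT12 passed 1.5-fold under all 5 pseudocounts and scalings run, with log2 changes of 0.77 to 0.90, 0.63 to 1.15 and 0.81 to 1.70, and SYT3 and VAMP1 under 4. With equal library totals the median of all compared genes was -0.05. Small changes of genes with many reads also depended on scaling. SYNGR2, at 0.17 (log2), was at 0.09 with equal library totals and under quantile normalization. STXBP5L, at -0.10, was at -0.18 with equal library totals. A choice made after seeing the data, the median coding transcript length in place of the longest, kept 28 of 31 ratios per kilobase on the same side of 1; of the others, VAMP7 over VAMP2 became 0.692 in shNRP2 and 0.869 in shControl. Under it, STX3 in place of STX10 led the syntaxins, SNAP23 in place of SNAP47 the SNAPs and, in shNRP2, SYTL2 in place of SYTL1 the SYTLs. Without a filter the additional member higher was SYT5, on 13 reads in shNRP2 and 1 in shControl.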
